A study of Mus musculus with 21 samples.

Results

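The genes that open DNA replication origins and build the replication fork were followed in primary mouse B cell precursors transduced with C-MYC, with BCR-ABL1 or with a vector lacking both (EV). They were the 46 genes of a list drawn up by function, found by symbol in a count table of 24421 genes. All 46 were in the table, and all 46 were among the 12786 genes that passed the filter on low counts. In C-MYC cells 34 of the 46 were higher than in EV and 0 were lower, where 18.6% of all genes tested were called higher, and the median over all 46 was 1.33-fold. In BCR-ABL1 cells 2 of the 46, Orc1 and Mcm4, were higher than in EV, where 5.08% of all genes were. With the replicate number as a block in the fit, 14 of the 46 were higher in BCR-ABL1, where 9.55% of all genes were. In C-MYC 38 of the 46 were higher in that fit, where 22.8% of all genes were. Without the block, log2 fold changes over EV were positive for 45 of the 46 in each oncogene condition. Among all genes tested 50.2% were positive in BCR-ABL1 and 45.3% in C-MYC.

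Replication starts at origins in steps that each have their own proteins. In G1 phase the origin recognition complex, with Cdc6 and Cdt1, loads the MCM2-7 ring onto DNA, and geminin (Gmnn) blocks reloading later in the cell cycle. In S phase the Cdc7-Dbf4 kinase, Cdc45, the GINS complex and Mcm10 turn the ring into an active helicase. Polymerase alpha-primase then lays down primers, polymerase epsilon extends the leading strand and polymerase delta the lagging strand, both with the PCNA clamp that the RFC complex loads. RPA coats exposed single strands, and Fen1 and Lig1 join the Okazaki fragments. Many of these genes are known to be transcribed most strongly near the start of S phase, in part through E2F factors, so dividing B cell precursors express them highly.

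All cells came from the bone marrow of 53BP1-/- C57BL/6 mice, which lack a DNA repair factor, and the EV cells share that deletion. They grew with IL-7, the cytokine on which B cell precursors depend, and received a MIGR1 retrovirus that was empty (EV) or encoded the human p210 form of the BCR-ABL1 fusion kinase or mouse C-MYC. RNA was taken 7 to 9 days after transduction from cells depleted of dead cells, in 2 libraries for each of the 3 conditions. The libraries come from repeat experiments on polyclonal cultures, and nothing in the sources ties a library to a single animal. Age and sex of the mice were not used here.

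The 6 libraries held between 20687092 and 24095955 counts. Replicates differed by more than counting noise (chi-square per degree of freedom 19.1 in C-MYC, 10.1 in BCR-ABL1 and 42.9 in EV), so the spread between libraries and not the depth set the precision. Levels are given as CPM, a count over the size of its library after scaling by edgeR's TMM factors. Myc measured 181 and 137 CPM in EV, 343 and 348 CPM in BCR-ABL1 and 1743 and 1233 CPM in C-MYC, and in C-MYC the counts include those from the mouse coding sequence in the vector. Trp53bp1, which encodes 53BP1, was still counted 363 and 723 times by library in EV, 464 and 516 times in BCR-ABL1 and 342 and 408 times in C-MYC. The table does not separate exons, so these counts do not test the deletion.

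The B lineage label held in every library. The 13 B cell precursor markers summed to 6844 and 6125 CPM in EV, 7023 and 6381 CPM in BCR-ABL1 and 4338 and 3724 CPM in C-MYC. Among them Vpreb1, part of the surrogate light chain, measured 835 and 651 CPM in EV, 792 and 838 CPM in BCR-ABL1 and 419 and 433 CPM in C-MYC. In C-MYC 11 of the 13 were lower than in EV, and in BCR-ABL1 3 were lower (Cd79b, Il7r and Rag1) and 1, Dntt, was higher (edgeR). The summed markers of other cells were highest in EV. The summed level of 13 myeloid markers was 1294 and 1187 CPM in EV, 144 and 163 CPM in BCR-ABL1 and 203 and 355 CPM in C-MYC, and all 13 were lower in each transformed condition. The 9 T and NK cell markers summed to 237 and 184 CPM in EV, 132 and 118 CPM in BCR-ABL1 and 59.3 and 54.9 CPM in C-MYC, with 8 and 9 of them lower than in EV. By median these markers changed by -4.06 on the log2 scale in BCR-ABL1 against EV and by -4.73 in C-MYC against EV. Lck, not called in BCR-ABL1 against EV, made up most of the sum in both transformed conditions. It measured 117 and 93.2 CPM in EV, 125 and 109 CPM in BCR-ABL1 and 56.1 and 49.1 CPM in C-MYC. The 9 stromal markers, of which Lum was at 0 throughout, summed to 109 and 163 CPM, 5.40 and 6.32 CPM and 1.98 and 3.28 CPM in the same order. The 10 erythroid and megakaryocyte markers summed to 37.9 and 47.8 CPM, 9.34 and 7.94 CPM and 11.4 and 13.7 CPM, with Hbb-b1, Hba-a1 and Hba-a2 at 0. These lists move with every comparison against EV below, and their part in the replication gene results was not tested. In bulk RNA, fewer cells of a type and less RNA per cell cannot be told apart.

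**Figure D1:**
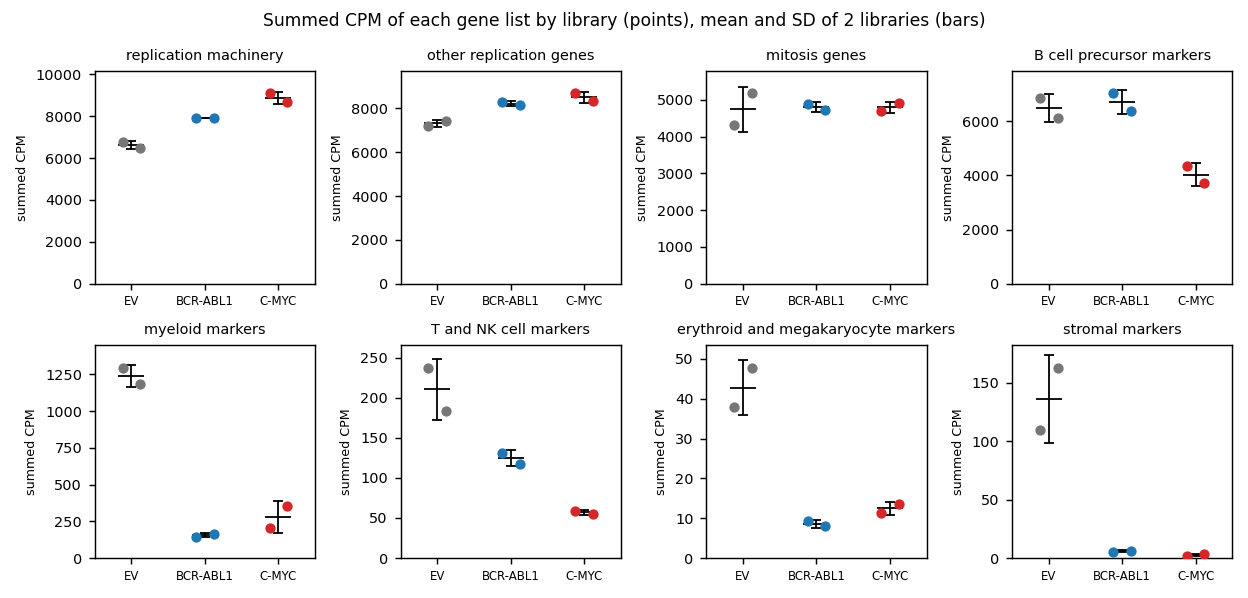
Summed CPM (y axes, each from 0) of 8 gene lists in EV, BCR-ABL1 and C-MYC (x axes), with a point for each library and bars for the mean and SD of 2 libraries. The replication machinery is lowest in EV and highest in C-MYC, the mitosis genes overlap between conditions, and the myeloid and stromal markers are highest in EV.

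Together the 46 genes held 6761 and 6491 CPM in EV, 7933 and 7934 CPM in BCR-ABL1 and 9085 and 8672 CPM in C-MYC. The order EV, BCR-ABL1, C-MYC held for every library of the sum, without overlap. As a share of all counts the genes made up 0.684% to 0.699% in EV, 0.785% to 0.792% in BCR-ABL1 and 0.850% to 0.858% in C-MYC. Gene by gene, both C-MYC libraries lay above both EV libraries for 41 of the 46 (89.1%), against 31.5% of all genes tested. Both BCR-ABL1 libraries lay above both EV libraries for 38 of the 46 (82.6%), against 29.2% of all genes. Both C-MYC libraries lay above both BCR-ABL1 libraries for 34 of the 46 (73.9%), against 34.5% of all genes.

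**Figure D2:**
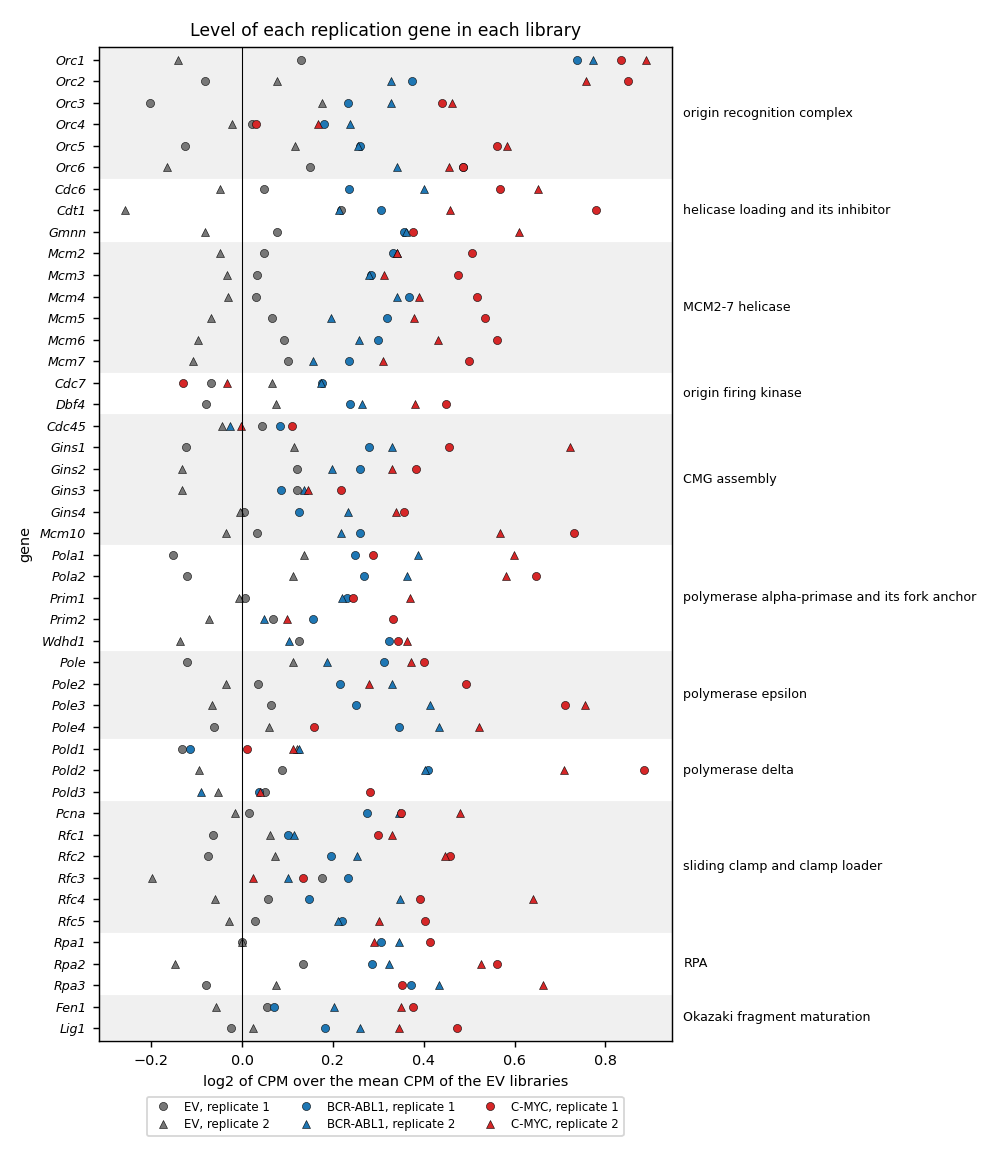
Level of each of the 46 replication genes (y axis, grouped by role) in each of 6 libraries, as log2 of its CPM over the mean CPM of the 2 EV libraries (x axis). Circles are replicate 1 and triangles replicate 2. For 41 genes both C-MYC libraries lie right of both EV libraries, while Cdc7, Cdc45, Pold1, Pold3 and Rfc3 overlap.

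The question for C-MYC against EV was whether the oncogene came with more RNA of the replication machinery. By the quasi-likelihood test of edgeR, adjusted over all genes tested by the Benjamini-Hochberg method, 34 of 46 genes (73.9%) were higher at an adjusted p below 0.05 and 0 were lower. Among all genes tested 18.6% were called higher and 24.5% lower. At an unadjusted p below 0.05, 38 were higher and 0 lower. The share of all genes at that threshold was not counted in any comparison. DESeq2 called 37 of 46 higher, against 19.4% of all genes, and 0 lower, and limma 15 of 46, against 15.1%, and 0. The median log2 fold change was 0.42, beside -0.08 over all genes tested, and the changes were small in size. Orc1 had the largest fold change, 1.82-fold, and 9 genes exceeded 1.5-fold (Orc1, Orc2, Pold2, Pole3, Mcm10, Cdt1, Pola2, Cdc6 and Gins1). The 12 genes not called were Orc4, Cdc7, Cdc45, Gins2, Gins3, Prim2, Wdhd1, Pole2, Pole4, Pold1, Pold3 and Rfc3. The count was 15 without replicate 1 of C-MYC, 18 without replicate 2 of C-MYC, 20 when libraries were scaled by total counts and 15 by limma on FPKM. Scaling by total counts moved the median of all genes to -0.19, and the median of the replication genes stayed 0.49 above it, as with TMM.

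BCR-ABL1 against EV asked the same of the kinase. Orc1 was higher by a log2 fold change of 0.76 (SE 0.14, adjusted p = 0.00950) and Mcm4 by 0.35 (SE 0.10, adjusted p = 0.0406), and 0 genes were lower. That is 2 of 46, or 4.35%, where 5.08% of all genes were called higher and 12% lower. The count in this fit, without the replicate number, was thus near the background. Before adjustment 19 genes were higher at p below 0.05 and 0 lower. DESeq2 called 8 of 46 higher, against 7.25% of all genes, and 0 lower, and limma 1 of 46, against 2.33%, and 0. The median log2 fold change was 0.26, beside 0.00 over all genes, with values from -0.03 (Pold3) to 0.76 (Orc1). With the replicate number as a block 14 of 46 genes were higher, against 9.55% of all genes in that fit. These were Orc1, Orc2, Orc6, Mcm2, Mcm3, Mcm4, Mcm5, Mcm6, Pola1, Pole4, Pold2, Pcna, Rpa1 and Rpa3, named after their values were seen. The median log2 fold change was 0.27 and 0.25 without replicate 1 and 2 of BCR-ABL1. Without replicate 1 and 2 of EV it was 0.29 and 0.25. The count was 6 of 46 with DESeq2's size factors (5.78% of all genes in that fit) and 4 of 46 with no filter on low counts (4.56%). It was 1 of 46 with total counts (3.10%), limma (2.33%), the 4 libraries compared alone (3.19%) or a test against a 1.2-fold change (2.29%).

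Set directly against BCR-ABL1, C-MYC cells had higher levels of Orc2, by a log2 fold change of 0.45 (SE 0.11, adjusted p = 0.0241), of Mcm10, by 0.41 (SE 0.11, adjusted p = 0.0323), and of Pold2, by 0.39 (SE 0.12, adjusted p = 0.0454). These were 3 of 46 genes (6.52%), with 0 lower, where 11.5% of all genes were called higher and 11.9% lower. At an unadjusted p below 0.05, 6 genes were higher and 0 lower, DESeq2 called 4 and 0, and limma 0 and 0. The median log2 fold change was 0.14 beside 0.00 over all genes. This comparison tests the difference between the oncogenes, and for 43 genes that difference was not shown. With the replicate block Cdt1 and Pole3 were added, for 5 of 46 genes against 16.5% of all genes. The median log2 fold change was 0.15 and 0.17 without replicate 1 and 2 of BCR-ABL1, and 0.14 and 0.17 without those of C-MYC. In a fit of the 4 compared libraries alone the count was 6 of 46, against 18.7% of all genes. Of the B cell precursor markers 10 of 13 were lower in C-MYC than in BCR-ABL1, and of the myeloid markers 3 of 13 (Csf1r, Cebpa and Adgre1) were higher, and their part here was not tested either. The comparisons with EV share the EV libraries, so their values are given side by side and not as repeats of each other.

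**Figure D3:**
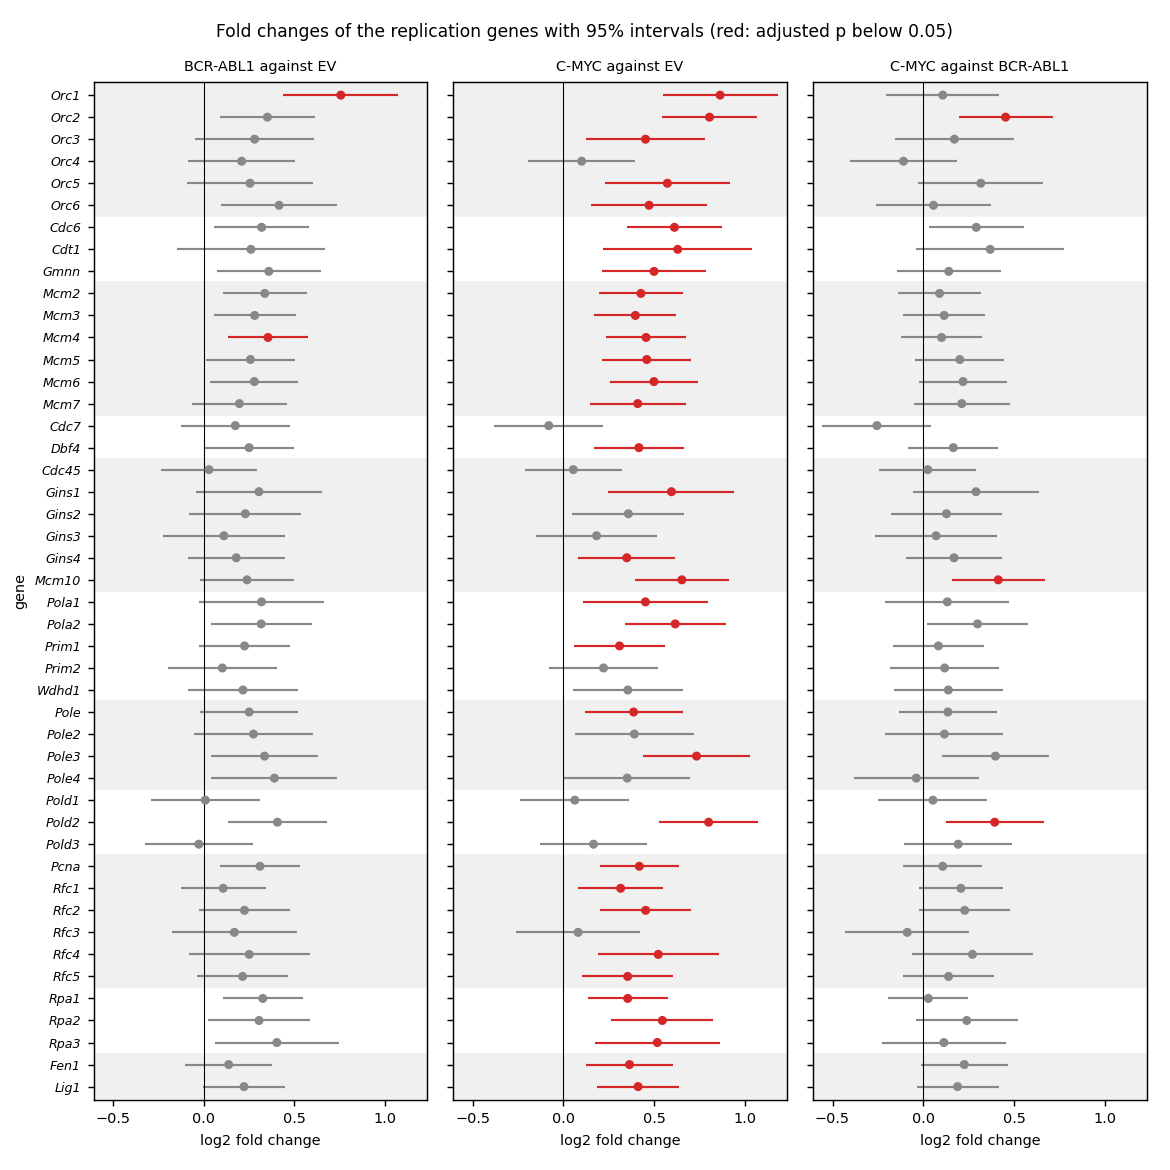
Log2 fold change (x axes) of each of the 46 replication genes (y axis) in the 3 comparisons, with 95% intervals from edgeR. Red marks an adjusted p below 0.05, which 2, 34 and 3 genes reached, all of them to the right of 0.

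**Figure D4:**
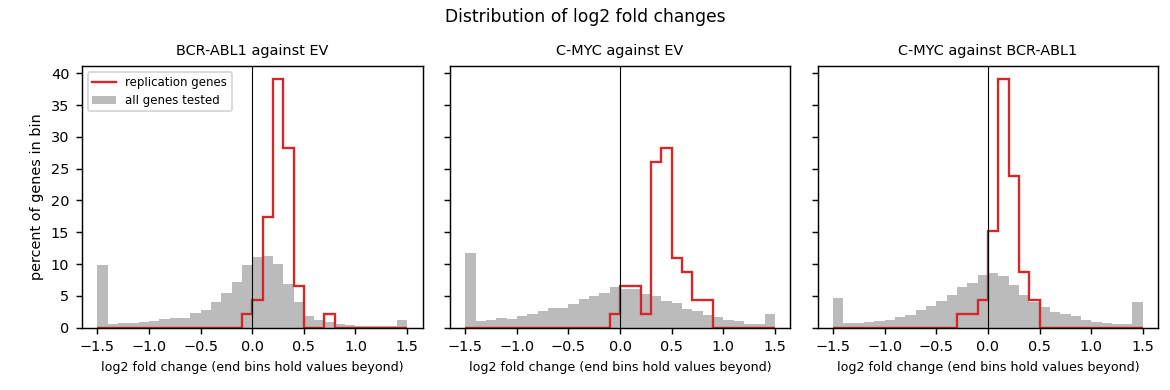
Percent of genes (y axis) in bins of log2 fold change (x axes) for all 12786 genes tested (grey bars) and the 46 replication genes (red line). The replication genes centre on 0.26, 0.42 and 0.14 and stay within a narrower range than all genes.

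Promoter sequences are shown because most of the genes were higher together in C-MYC, and they let a reader see which known motifs lie at genes that rose and at a gene that was not called. RefSeq promoters of build GRCm38.p6, from 250 bases before to 50 after the start, were matched for 38 of the 46 genes, with 48 promoters in all. Gins1, Gins2, Gins4, Gmnn, Mcm4, Pole, Prim2 and Rfc2 were not matched. Letters in capitals mark E2F motifs (TTTCCCGC, TTTCGCGC, TTTGCCGC or TTTGGCGC) and CCAAT boxes on either strand. The genes printed were picked by name and not by a rule. Orc1, Mcm6, Mcm10 and Pold2 rose in C-MYC, and all hold CCAAT boxes. Orc1 and Mcm6 also hold E2F motifs, while Mcm10 and Pold2 hold none of these within the window. The Mcm10 window ends on TTTGGCG, which is TTTGGCGC without its last letter, so a motif across its edge was not looked for. Cdc45, whose levels overlapped in every comparison, holds CCAAT boxes and none of these E2F motifs. Other genes not called, Gins3, Pold1, Pold3, Pole2, Pole4 and Rfc3, do hold an E2F motif. In Mcm6, 2 of the 3 E2F matches overlap each other.
Orc1, chr4:108579204-108579503, plus strand: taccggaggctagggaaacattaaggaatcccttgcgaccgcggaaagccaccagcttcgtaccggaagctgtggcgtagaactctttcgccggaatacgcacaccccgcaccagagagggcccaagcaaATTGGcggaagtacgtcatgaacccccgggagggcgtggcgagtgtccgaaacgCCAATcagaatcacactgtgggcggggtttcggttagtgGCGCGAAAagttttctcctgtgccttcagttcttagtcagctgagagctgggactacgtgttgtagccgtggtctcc
Mcm6, chr1:128359656-128359955, minus strand: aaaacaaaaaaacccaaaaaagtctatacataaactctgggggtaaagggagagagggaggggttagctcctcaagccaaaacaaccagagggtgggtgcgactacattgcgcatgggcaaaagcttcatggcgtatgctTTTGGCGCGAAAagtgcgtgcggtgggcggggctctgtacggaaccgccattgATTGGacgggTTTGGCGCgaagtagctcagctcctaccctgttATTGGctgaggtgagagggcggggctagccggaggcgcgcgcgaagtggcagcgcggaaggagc
Mcm10, chr2:5012742-5013041, minus strand: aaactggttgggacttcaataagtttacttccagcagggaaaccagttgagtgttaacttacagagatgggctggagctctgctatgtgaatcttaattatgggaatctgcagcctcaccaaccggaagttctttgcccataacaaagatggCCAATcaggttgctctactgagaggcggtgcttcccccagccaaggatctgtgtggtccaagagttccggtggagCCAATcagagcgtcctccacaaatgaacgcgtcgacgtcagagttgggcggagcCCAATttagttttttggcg
Pold2, chr11:5878207-5878506, minus strand: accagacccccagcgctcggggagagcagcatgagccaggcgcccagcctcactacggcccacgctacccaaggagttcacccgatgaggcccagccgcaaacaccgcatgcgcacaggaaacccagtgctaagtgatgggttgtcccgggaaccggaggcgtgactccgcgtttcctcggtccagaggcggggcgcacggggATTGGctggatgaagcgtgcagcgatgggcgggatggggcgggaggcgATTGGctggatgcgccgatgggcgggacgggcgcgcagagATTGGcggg
Cdc45, chr16:18811923-18812222, minus strand: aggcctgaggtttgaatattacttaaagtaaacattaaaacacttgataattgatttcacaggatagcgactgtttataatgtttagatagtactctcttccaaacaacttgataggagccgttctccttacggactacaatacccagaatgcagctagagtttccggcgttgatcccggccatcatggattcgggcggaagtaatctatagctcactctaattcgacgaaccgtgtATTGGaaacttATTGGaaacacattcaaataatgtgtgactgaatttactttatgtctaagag

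In these windows an E2F motif was present in 17 of 48 promoters of replication genes (35.4%) and in 2.26% of the 32851 promoters of the table. Within the 100 bases around the start it was present in 14 of 48 (29.2%), against 0.822% of all promoters. Of the 16 genes with it 10 were higher in C-MYC than in EV (median log2 fold change 0.41). Of the 22 genes without it 18 were higher (median 0.42). The CCAAT box was in 47.9% of the promoters, against 37.4% of all. Of the 21 genes with a CCAAT box 17 were higher in C-MYC than in EV (median log2 fold change 0.43). Of the 17 genes without a CCAAT box 11 were higher (median 0.41). The E-box CACGTG, the sequence that MYC with MAX is known to bind, was in 6 of 48 (12.5%), against 7.15% of all. The 6 genes with an E-box were Fen1, Lig1, Orc4, Pola2, Rfc1 and Rpa1, of which 5 were higher in C-MYC, and Orc4 was not called. Their median log2 fold change was 0.36. Of the 32 genes without an E-box 23 were higher (median 0.44). A match is a description of letters, and binding was not measured here.

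The origin recognition complex held the largest single changes. Orc1 (chr4:108579423-108614833, GRCm38, plus strand), the ATPase subunit that joins the complex in G1, measured 31.6 and 26.2 CPM in EV, 48.1 and 49.3 CPM in BCR-ABL1 and 51.4 and 53.4 CPM in C-MYC. Every oncogene library exceeded both EV libraries, and BCR-ABL1 and C-MYC differed by 0.11 on the log2 scale (95% interval -0.21 to 0.42). The C-MYC log2 fold change over EV was 0.86 (SE 0.14, adjusted p = 0.00216). Orc2 (chr1:58462771-58505109, minus strand), a core subunit, measured 68.3 and 76.2 CPM in EV, 93.7 and 90.7 CPM in BCR-ABL1 and 130.2 and 122 CPM in C-MYC, so that the 3 conditions formed separate steps. Its log2 fold change in C-MYC over EV was 0.80 (SE 0.11, adjusted p = 0.00133). Orc5 measured 16.1 and 19.1 CPM in EV, 21.0 and 21.0 CPM in BCR-ABL1 and 26.0 and 26.4 CPM in C-MYC, with a C-MYC log2 fold change of 0.57 (SE 0.15, adjusted p = 0.0169). Orc3 and Orc6 were also higher in C-MYC, by 0.45 and 0.47 on the log2 scale, whereas Orc4 measured 33.7 and 32.6 CPM in EV, 37.5 and 39.1 CPM in BCR-ABL1 and 33.8 and 37.2 CPM in C-MYC and was not called (95% interval -0.19 to 0.39). Exons of Orc1 and Orc2 share 10.8% and 29.8% of their bases with genes on the other strand, and whether counting used strand is not given in the sources used here.

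All 3 genes of helicase loading and its control were higher in C-MYC than in EV. Cdc6, which loads the helicase with the origin recognition complex, measured 82.1 and 76.7 CPM in EV, 93.4 and 105 CPM in BCR-ABL1 and 118 and 125 CPM in C-MYC. Its log2 fold change in C-MYC over EV was 0.61 (SE 0.11, adjusted p = 0.00422). Gmnn, whose protein inhibits Cdt1, measured 84.8 and 76.0 CPM in EV, 103 and 103 CPM in BCR-ABL1 and 104 and 123 CPM in C-MYC, with a log2 fold change of 0.50 (SE 0.12, adjusted p = 0.0139). In C-MYC the loader and its inhibitor rose together. Cdt1 had the largest SE of the 46 genes and measured 135 and 97.3 CPM in EV, 144 and 135 CPM in BCR-ABL1 and 199.8 and 159.9 CPM in C-MYC, and its EV and BCR-ABL1 libraries overlapped. Its C-MYC log2 fold change was 0.63 (SE 0.18, adjusted p = 0.0227), with a 95% interval of 0.22 to 1.04.

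All 6 genes of the MCM2-7 ring rose in C-MYC, each by between 0.40 (Mcm3) and 0.50 (Mcm6) on the log2 scale. Mcm4, the subunit also higher in BCR-ABL1, measured 332 and 319 CPM in EV, 420.2 and 412 CPM in BCR-ABL1 and 466 and 426 CPM in C-MYC. Its C-MYC log2 fold change was 0.45 (SE 0.10, adjusted p = 0.00696), and C-MYC and BCR-ABL1 differed by 0.10 (95% interval -0.12 to 0.32). Mcm6 (chr1:128331590-128359664, minus strand), with the E2F motifs printed above, measured 536 and 471 CPM in EV, 620.0 and 602 CPM in BCR-ABL1 and 743 and 679 CPM in C-MYC and rose by a log2 fold change of 0.50 (SE 0.10, adjusted p = 0.00697). Mcm5 measured 499 and 454 CPM in EV, 594 and 546 CPM in BCR-ABL1 and 690.1 and 619.7 CPM in C-MYC and rose by a log2 fold change of 0.46 (SE 0.11, adjusted p = 0.0104). In all 6 genes both C-MYC libraries lay above both BCR-ABL1 libraries, which lay above both EV libraries. Among all genes tested 34.5% showed the first of these separations and 29.2% the second, and the share with both was not counted. For Mcm2 the first rested on 518.5 CPM in C-MYC against 517.7 CPM in BCR-ABL1. No gene of the ring passed the test between the oncogenes. The BCR-ABL1 fold changes over EV ran from 0.20 (Mcm7) to 0.35 (Mcm4) on the log2 scale, and only Mcm4 was called without the replicate block. With it Mcm2, Mcm3, Mcm5 and Mcm6 were called too (adjusted p from 0.0218 to 0.0447, edgeR).

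Per length of transcript the ring genes other than Mcm2 were among the highest, with an order that depended on the measure. FPKM values, which divide by length, were used for 40 of the genes, since those of Pola1, Pole, Pole3, Pcna, Rpa1 and Rpa3 departed more than 4-fold from counts per kilobase of exon. Among these 40 genes Mcm5 was the highest by FPKM, at 206 and 191 FPKM in EV and 260.0 and 243 FPKM in C-MYC. Mcm6 followed at 153 and 136 FPKM in EV, Mcm7 at 148 and 129.8 FPKM and Mcm3 at 136 and 133 FPKM, and the libraries of Mcm7 overlapped those of the other two, while the lower Mcm6 library, at 136.3 FPKM, lay just above the higher Mcm3 library, at 135.5 FPKM. Mcm2 measured 65.6 and 62.9 FPKM in EV, below Pold2 at 106 and 96.3 FPKM and Rpa2 at 93.9 and 79.0 FPKM. By CPM per kilobase of exon over all 46 genes, the mean of the 2 libraries was highest for Pcna, at 215 in EV and 288 in C-MYC, followed by Mcm3 at 128 and 168. Among the 40 genes the lowest by FPKM was Orc1 in EV, at 8.50 and 6.90 FPKM, and Cdc7 in C-MYC, at 7.94 and 8.48 FPKM. By CPM per kilobase it was Orc5 in both, at 2.85 in EV and 4.24 in C-MYC.

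The kinase that fires origins split between its subunits. Dbf4, the regulatory subunit, measured 90.7 and 101 CPM in EV, 113 and 115 CPM in BCR-ABL1 and 131 and 125 CPM in C-MYC and was higher in C-MYC by a log2 fold change of 0.42 (SE 0.11, adjusted p = 0.0165). Cdc7, the catalytic subunit, measured 30.4 and 33.4 CPM in EV, 36.1 and 36.0 CPM in BCR-ABL1 and 29.1 and 31.2 CPM in C-MYC. It was the only gene of the 46 with a negative log2 fold change in C-MYC over EV, -0.08 (SE 0.13, adjusted p = 0.647), with libraries that overlapped. Both C-MYC libraries lay below both BCR-ABL1 libraries, with a log2 fold change of -0.26 (SE 0.13, adjusted p = 0.192) that did not pass the test.

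Among the genes that assemble the active helicase, 3 of 6 were higher in C-MYC. Mcm10 (chr2:4989714-5012791, minus strand), which helps to switch on the helicase, measured 79.6 and 75.9 CPM in EV, 93.1 and 90.5 CPM in BCR-ABL1 and 129 and 115 CPM in C-MYC. Its log2 fold change over EV was 0.65 (SE 0.11, adjusted p = 0.00285), and the difference from BCR-ABL1 was given above. Gins1 measured 28.4 and 33.5 CPM in EV, 37.6 and 38.9 CPM in BCR-ABL1 and 42.5 and 51.0 CPM in C-MYC and rose by a log2 fold change of 0.59 (SE 0.15, adjusted p = 0.0148). Gins4 measured 49.2 and 48.9 CPM in EV, 53.5 and 57.6 CPM in BCR-ABL1 and 62.8 and 62.1 CPM in C-MYC and rose by a log2 fold change of 0.35 (SE 0.11, adjusted p = 0.0410). Thus 2 of the 4 GINS subunits were called. Gins2, with a log2 fold change of 0.36 (SE 0.13, adjusted p = 0.0620), and Gins3, with 0.18 (SE 0.14, adjusted p = 0.343), were not, and 67.3% of the exon bases of Gins2 overlap Gse1 on the other strand. Cdc45 (chr16:18780447-18811987, minus strand), the remaining helicase partner, measured 78.4 and 73.8 CPM in EV, 80.7 and 74.7 CPM in BCR-ABL1 and 82.1 and 75.9 CPM in C-MYC. Its conditions overlapped throughout, and the 95% interval of its C-MYC log2 fold change over EV ran from -0.21 to 0.32.

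Primer synthesis was partly higher in C-MYC, with 3 of 5 genes called. Pola2, the regulatory subunit of polymerase alpha, measured 73.1 and 85.8 CPM in EV, 95.8 and 102 CPM in BCR-ABL1 and 124 and 119 CPM in C-MYC and rose by a log2 fold change of 0.62 (SE 0.12, adjusted p = 0.00514). Pola1, the catalytic subunit, measured 112 and 137 CPM in EV, 148 and 163 CPM in BCR-ABL1 and 152 and 189 CPM in C-MYC and rose by a log2 fold change of 0.45 (SE 0.15, adjusted p = 0.0405). For Pola1 replicate 2 was above replicate 1 in each condition, and BCR-ABL1 and C-MYC overlapped. Prim1, the primase that starts each primer, measured 78.8 and 78.1 CPM in EV, 92.1 and 91.3 CPM in BCR-ABL1 and 92.9 and 101 CPM in C-MYC and rose by a log2 fold change of 0.31 (SE 0.11, adjusted p = 0.0495), close to the threshold. Not called were its partner Prim2, with a log2 fold change of 0.22 (SE 0.13, adjusted p = 0.206), and Wdhd1, which ties polymerase alpha to the helicase, with 0.35 (SE 0.13, adjusted p = 0.0597).

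The leading and lagging strand polymerases each had subunits that passed the test and subunits that did not. Of polymerase epsilon, Pole3, a small histone-fold subunit, measured 38.0 and 34.7 CPM in EV, 43.3 and 48.5 CPM in BCR-ABL1 and 59.5 and 61.4 CPM in C-MYC and rose by a log2 fold change of 0.73 (SE 0.13, adjusted p = 0.00308) in C-MYC. Pole, the catalytic subunit, measured 126 and 149 CPM in EV, 171 and 157 CPM in BCR-ABL1 and 182 and 178 CPM in C-MYC and rose by a log2 fold change of 0.39 (SE 0.12, adjusted p = 0.0296). Pole2 measured 25.5 and 24.2 CPM in EV, 28.9 and 31.2 CPM in BCR-ABL1 and 35.0 and 30.2 CPM in C-MYC with a log2 fold change of 0.39 (SE 0.14, adjusted p = 0.0561), just outside the threshold. Pole4, the histone-fold partner of Pole3, was not called at a log2 fold change of 0.35 (SE 0.15, adjusted p = 0.0930), with C-MYC libraries of 52.4 and 67.4 CPM that spanned the BCR-ABL1 libraries.

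Polymerase delta was split as well. Pold2 (chr11:5872180-5878292, minus strand), an accessory subunit, measured 99.99 and 88.1 CPM in EV, 125 and 124 CPM in BCR-ABL1 and 174 and 154 CPM in C-MYC, with no overlap between conditions, and rose by a log2 fold change of 0.80 (SE 0.12, adjusted p = 0.00159) in C-MYC. Pold1, the catalytic subunit, measured 233 and 278 CPM in EV, 236 and 279 CPM in BCR-ABL1 and 258 and 277 CPM in C-MYC. Here replicate 2 exceeded replicate 1 in every condition, the conditions overlapped, and the C-MYC log2 fold change was 0.06 (SE 0.13, adjusted p = 0.726). Pold3 measured 83.9 and 78.1 CPM in EV, 83.1 and 76.0 CPM in BCR-ABL1 and 98.5 and 83.2 CPM in C-MYC, with a C-MYC log2 fold change of 0.17 (SE 0.13, adjusted p = 0.329). Pold4, the smallest subunit, was outside the 46 genes and measured 12.7 and 11.3 CPM in EV, 7.30 and 8.31 CPM in BCR-ABL1 and 4.83 and 5.21 CPM in C-MYC. It fell in C-MYC by a log2 fold change of -1.25 (SE 0.20, adjusted p = 0.00230), so that within this polymerase 1 subunit was higher, 1 lower and 2 not called.

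Of the sliding clamp and its loader, 5 of 6 genes were higher in C-MYC. Pcna, the clamp, measured 522 and 512 CPM in EV, 625 and 657 CPM in BCR-ABL1 and 659 and 721 CPM in C-MYC and rose by a log2 fold change of 0.42 (SE 0.09, adjusted p = 0.00942). Reads of Pcna could be split with its annotated pseudogenes, so its level is uncertain. Rfc2 measured 81.6 and 90.4 CPM in EV, 98.5 and 103 CPM in BCR-ABL1 and 118 and 117 CPM in C-MYC and rose by a log2 fold change of 0.45 (SE 0.11, adjusted p = 0.0119). Rfc4 measured 41.0 and 37.9 CPM in EV, 43.7 and 50.2 CPM in BCR-ABL1 and 51.8 and 61.5 CPM in C-MYC and rose by a log2 fold change of 0.52 (SE 0.14, adjusted p = 0.0208). Rfc1 and Rfc5 were higher by 0.31 and 0.35 on the log2 scale. Of the exon bases of Rfc2, Rfc4 and Rfc5, 15.1%, 12.7% and 10.7% overlap genes on the other strand. Rfc3 was the exception, with a log2 fold change of 0.08 (95% interval -0.26 to 0.42), with EV libraries of 85.2 and 65.7 CPM on either side of both C-MYC libraries.

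All 3 RPA subunits and both genes of Okazaki fragment maturation were higher in C-MYC. Rpa2 measured 116 and 95.01 CPM in EV, 128 and 132 CPM in BCR-ABL1 and 155 and 152 CPM in C-MYC and rose by a log2 fold change of 0.54 (SE 0.12, adjusted p = 0.00890). Rpa1, the large DNA-binding subunit, measured 264 and 263 CPM in EV, 326 and 335 CPM in BCR-ABL1 and 351 and 322 CPM in C-MYC and rose by a log2 fold change of 0.35 (SE 0.10, adjusted p = 0.0193). Rpa3 measured 30.8 and 34.2 CPM in EV, 42.0 and 43.9 CPM in BCR-ABL1 and 41.5 and 51.5 CPM in C-MYC and rose by a log2 fold change of 0.52 (SE 0.15, adjusted p = 0.0247). For Rpa1 and Rpa3 the oncogene conditions overlapped each other while both lay above EV. Lig1, the ligase that seals the fragments, measured 279 and 288 CPM in EV, 322 and 339 CPM in BCR-ABL1 and 393 and 359.7 CPM in C-MYC and rose by a log2 fold change of 0.41 (SE 0.10, adjusted p = 0.0117). Fen1, the flap nuclease, measured 159.5 and 148 CPM in EV, 161 and 177 CPM in BCR-ABL1 and 199 and 196 CPM in C-MYC and rose by a log2 fold change of 0.36 (SE 0.10, adjusted p = 0.0242), and 78.8% of its exon bases overlap the antisense gene Gm10143.

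**Figure D5:**
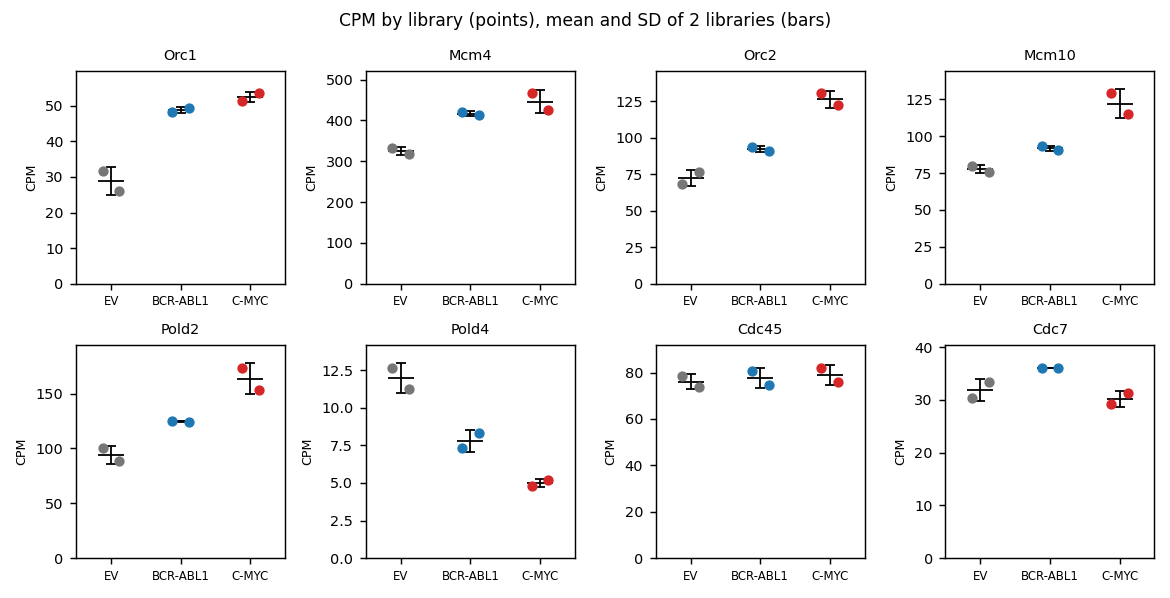
CPM (y axes, each from 0) of 8 genes in EV, BCR-ABL1 and C-MYC (x axes), with a point for each library and bars for the mean and SD of 2 libraries. Orc1 is higher in both oncogene conditions, Orc2, Mcm10 and Pold2 are highest in C-MYC, Pold4 is lowest in C-MYC, and Cdc45 overlaps in all 3.

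A second list held 43 other genes that work at or around forks, of which 42 were in the table. In C-MYC against EV 15 were higher and 1, Pold4, was lower, with a median log2 fold change of 0.27. That is 35.7% higher and 2.38% lower, where 18.6% of all genes were called higher and 24.5% lower. Mcm8, a helicase of meiosis and repair, measured 13.3 and 16.3 CPM in EV, 19.3 and 21.4 CPM in BCR-ABL1 and 25.9 and 33.0 CPM in C-MYC and rose by a log2 fold change of 1.00 (SE 0.18, adjusted p = 0.00413). Cdc25a, the phosphatase that activates CDK2, measured 77.8 and 86.3 CPM in EV, 105 and 107 CPM in BCR-ABL1 and 158 and 152 CPM in C-MYC and rose by a log2 fold change of 0.92 (SE 0.11, adjusted p = 0.000683). Both were higher in every C-MYC library than in any other. Tipin, of the fork protection complex, rose by a log2 fold change of 0.79 (SE 0.13, adjusted p = 0.00230), and Rnaseh2a, which removes RNA from DNA, by 0.71 (SE 0.14, adjusted p = 0.00546). In BCR-ABL1 against EV 4 were higher (Tipin, Esco2, Rif1 and 2810417H13Rik) and 0 lower (9.52% of the list, where 5.08% of all genes were higher and 12% lower), with 10 and 1 at an unadjusted p below 0.05, 6 and 0 by DESeq2 and 1 and 1 by limma. In C-MYC against BCR-ABL1 Rnaseh2a, Supt16 and Cdc25a were higher and Mcm9, Dna2, Asf1b and Esco2 lower. These shares, 7.14% and 9.52%, were below the 11.5% and 11.9% of all genes. With the replicate block 10 of 42 were higher and 1 lower in BCR-ABL1 against EV, where 9.55% and 15.7% of all genes were. In C-MYC against EV it was 18 and 3 of 42, where 22.8% and 29% of all genes were. In C-MYC against BCR-ABL1 it was 6 and 5 of 42, where 16.5% and 17% of all genes were. Apart from Tipin, Mcm8, Cdc25a, Rnaseh2a and Pold4, these genes were named after their values were seen.

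A list of mitosis genes was called higher in C-MYC at about the share of all genes. Of its 22 genes 4 were higher in C-MYC than in EV (Cdk1, Ccnb1, Cdc20 and Kif20a, named after their values were seen) and 0 lower, which is 18.2% beside 18.6% of all genes called higher and 24.5% lower, with a median log2 fold change of 0.08. With the replicate block 6 of 22 were higher and 2 of 22 lower, beside 22.8% and 29% of all genes. Their summed level was 4315 and 5175 CPM in EV, 4901 and 4714 CPM in BCR-ABL1 and 4699 and 4903 CPM in C-MYC, so the EV libraries spanned all the others. In BCR-ABL1 against EV 0 were called by edgeR in either direction, 2 were higher at an unadjusted p below 0.05, and DESeq2 called 2, limma 0 and edgeR with the replicate block 2. The difference between the lists was not tested.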

How the data were processed

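Poly(A) RNA was sequenced in 6 libraries of the 21 samples of the series; the ChIP-seq samples were not analysed here. Per the labels and the study's methods, the authors aligned reads with STAR 2.5.0 to GRCm38 and deposited raw counts per gene, and FPKM from StringTie 1.3.0. The counting program and its strand setting are not given in the sources used here. Both tables hold 24421 genes and 0 columns of other samples. The 46 genes and the other lists were chosen with earlier results of these data known.

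Counts were normalized by TMM, filtered with filterByExpr and fitted with edgeR 4.0.16 (R 4.3.3) over all 6 libraries, without a block. The quasi-likelihood test was adjusted by Benjamini-Hochberg over 12786 genes at 0.05. The p-values measure the spread between 2 libraries a condition, with 3 residual degrees of freedom before moderation. An exact permutation test of 2 against 2 libraries could not go below p = 0.333 and was not used. The fit was checked on simulated data. Its common biological coefficient of variation was 0.151. All 46 genes are named. Library values are given for genes called in BCR-ABL1 against EV, and for up to 3 genes with the smallest p in each role in C-MYC against EV. Those of Orc4, Mcm2, Cdc45, Pole4 and Rfc3, given in whole or in part, were added after their values were seen. Of the other fork genes, the 5 with the largest change among those called in C-MYC against EV are named by rule.

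Same-numbered libraries deviated together (r = 0.273 for EV with BCR-ABL1, 0.236 for EV with C-MYC and 0.204 for BCR-ABL1 with C-MYC, across genes), and the replicate number was taken as a pairing on that basis, from the data. Alternatives were DESeq2 1.42.0 (size factors and test), total counts, no filter, limma 3.58.1 on log2(FPKM + 1) and log2(FPKM + 0.1) with a mean FPKM of at least 1, the 4 libraries compared alone, a replicate block, a test against 1.2-fold and leaving out each library. Exon overlaps came from GENCODE and promoters from RefSeq, both on GRCm38.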

Additional observations from a re-analysis of the deposited data

How the results depend on the processing

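In every alternative run, 0 replication genes were called lower. The number called higher in C-MYC against EV (34) was 20 with total counts, 15 by limma with either pseudocount, 12 against a 1.2-fold change and 15 to 30 with a library left out. In BCR-ABL1 against EV (2) it was 6 with DESeq2 size factors, 4 with no filter, 8 by DESeq2's test, 1 with total counts, limma, the 4 libraries alone or 1.2-fold, and 0 to 8 with a library left out. In C-MYC against BCR-ABL1 (3) it was 6 in the 4 libraries alone, 0 by limma or against 1.2-fold, and 0 to 6 with a library left out. With the replicate block the counts were 14 in BCR-ABL1 against EV, 5 in C-MYC against BCR-ABL1 and 38 in C-MYC against EV, where Gins2, Wdhd1, Pole2 and Pole4 were added. The block ended no call among the 46 genes. With a library left out, the arm left with 1 library is assumed to vary like the other groups, and the medians are given below.

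The median log2 fold change in C-MYC against EV (0.42) was 0.46 with DESeq2 size factors, 0.30 with total counts, 0.43 with no filter, 0.47 by DESeq2's test, 0.29 and 0.30 by limma, 0.47 in the 4 libraries alone and 0.39 to 0.43 with a library left out. In BCR-ABL1 against EV (0.26) it was 0.19 with total counts, 0.28 by DESeq2's test, 0.18 and 0.19 by limma and 0.25 to 0.29 with a library left out. In C-MYC against BCR-ABL1 (0.14) it was 0.093 with total counts, 0.094 and 0.097 by limma and 0.14 to 0.17 with a library left out. Scaling sets the level of all genes, and the causes of the other shifts were not tested.

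Across 14 alternatives, all but the 1.2-fold test, no called gene changed sign, and Cdc6, Mcm4, Mcm6, Mcm10, Orc1, Orc2, Pola2, Pold2 and Pole3 were called in each in C-MYC against EV. No gene was called in each in the other comparisons. Signs turned only for genes not called. With total counts, limma + 1 and limma + 0.1, Cdc45 gave -0.041, -0.041 and -0.042 in BCR-ABL1 against EV, -0.064, -0.061 and -0.063 in C-MYC against EV and -0.024, -0.020 and -0.021 in C-MYC against BCR-ABL1. In the same order Pold1 gave -0.062, -0.061 and -0.062 in BCR-ABL1 against EV and -0.056, -0.042 and -0.042 in C-MYC against EV, Rfc3 -0.036, -0.015 and -0.015 in C-MYC against EV and Rpa1 -0.021, -0.020 and -0.020 in C-MYC against BCR-ABL1. Orc4 gave -0.016 with total counts in C-MYC against EV. In BCR-ABL1 against EV, Pold3 gave 0.0015 by DESeq2's test and Pold1 -0.00033 in the 4 libraries alone.

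With a library left out, BCR-ABL1 against EV ran from -0.020 to 0.083 for Cdc45, -0.0072 to 0.25 for Gins3, -0.12 to 0.14 for Pold1, -0.085 to 0.035 for Pold3 and -0.0038 to 0.37 for Rfc3. C-MYC against EV ran from -0.056 to 0.20 for Pold1 and -0.093 to 0.28 for Rfc3. C-MYC against BCR-ABL1 ran from -0.033 to 0.079 for Cdc45, -0.0069 to 0.13 for Orc6, -0.032 to 0.28 for Pola1, -0.064 to 0.19 for Pold1, -0.23 to 0.13 for Pole4, -0.0048 to 0.23 for Prim2, -0.035 to 0.086 for Rpa1 and -0.051 to 0.26 for Rpa3.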

Other observations

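Dbf4 gave different pictures in the deposited tables. Its level was 23.4 and 49.1 FPKM in EV, 27.4 and 52.1 FPKM in BCR-ABL1 and 56.5 and 55.9 FPKM in C-MYC, so that replicate 1 lay far below replicate 2 in EV and BCR-ABL1. By counts it measured 90.7 and 101 CPM, 113 and 115 CPM, and 131 and 125 CPM in the same libraries. The cause of the difference between the tables was not tested.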
